A study of Mus musculus with 6 samples.

Results

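The genes described here are the ligands and receptors of 2 growth factor systems, the platelet-derived growth factors (PDGF) and stem cell factor. They were chosen by gene symbol: the PDGF ligand genes Pdgfa, Pdgfb, Pdgfc and Pdgfd, the PDGF receptor genes Pdgfra and Pdgfrb, the stem cell factor gene Kitl and its receptor gene Kit. All 8 were found among the 23420 gene symbols measured. A filter on low counts left 11608 genes to test, and 6 of the 8 were among them. Kit and Pdgfrb were under the filter and are described by their counts.

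The cells were of the mouse embryonic endothelial line eEnd2, transfected with human Integrin-β1A that carries GFP in its extracellular part. The chimera was either wildtype (β1-WT-GFP) or had glutamine in place of a lysine of its tail (β1-K794Q-GFP), a change that mimics acetylation, and 3 untreated confluent cultures (A, B and C) of each were sequenced. The comparison asks how the acetylation-mimetic form changes transcription in endothelial cells. Both chimeras were driven by a short human β-actin promoter next to a matrix attachment region of chicken lysozyme. No deletion of the cells' own mouse Integrin-β1 is described in either group. GFP-positive cells were sorted into populations of low and of high GFP, and the labels do not say which population a culture came from. They also do not say whether the cultures of a group were transfected separately, so p-values measure the spread between these cultures, which may be technical.

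PDGF chains are secreted as dimers that bind the receptor tyrosine kinases PDGFRα and PDGFRβ. In blood vessels, PDGF-B made by endothelial cells recruits pericytes, which carry PDGFRβ, while PDGF-A acts through PDGFRα, typical of mesenchymal cells. PDGF-C and PDGF-D are secreted in a latent form that proteases activate. Stem cell factor exists as a membrane-bound and a shed form, and endothelial cells are one of its sources for the blood stem cells, germ cells, melanocytes and mast cells that carry the receptor KIT.

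The cultures held from 9589826 to 15287191 counts, so that a gene with 0 counts may be as high as 3 counts, or 0.209 to 0.300 CPM (normalized counts, scaled to library size). This limit covers counting error only. All 20 endothelial markers examined were tested and 0 passed the thresholds, against 5.19% of all tested genes. Their summed level was 10165 to 19156 CPM in β1-K794Q-GFP and 10904 to 14089 CPM in β1-WT-GFP cultures. Without β1-WT-GFP culture C, Cldn5 and Fli1 passed, 1 in each direction. Of the 12 markers of mural cells (pericytes and smooth muscle), 0 passed the filter, and Rgs5, Des, Kcnj8 and Higd1b were at 0 in every culture. Their summed level was 1.16 to 3.01 CPM with the mutant form and 0.525 to 5.43 CPM with the wildtype form. It was highest in β1-WT-GFP culture C, where Tagln (1.81 CPM), Anpep (1.74 CPM) and Acta2 (1.18 CPM) led. Abcc9 went the other way, at 0.289 to 1.28 CPM with the mutant form and 0 with the wildtype form. Notch3 reached 2.06 CPM with the mutant form and at most 0.0696 CPM with the wildtype form. Likeness within a group varied: β1-WT-GFP cultures A and B were at least 2-fold apart in 65 tested genes (0.560%), but culture C differed as much from A in 2701 genes (23.3%) and from B in 2539 (21.9%). In β1-K794Q-GFP cells such genes numbered 903 for A with C, 2001 for A with B and 2562 for B with C. Values of a group are given below in the order of cultures A, B and C.

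Transcripts of Kitl were 2.22-fold higher in β1-K794Q-GFP than in β1-WT-GFP cells, whereas those of Pdgfa were 5.42-fold and those of Pdgfd 36.1-fold lower. These 3 of the 6 tested genes passed the study's own thresholds, a fold change of 2 or more together with an unadjusted p no higher than 0.05. Among all tested genes 603 passed them (5.19%), of which 404 were higher with the mutant form (3.48%) and 199 lower (1.71%). At a Benjamini-Hochberg adjusted p of at most 0.05 edgeR's quasi-likelihood test called 0 of the 6, against 21 (0.181%) of all tested genes. At an unadjusted p of at most 0.05 the same test gave 3 of the 6, and DESeq2 called the same number at an adjusted p of at most 0.05. For neither of these calls was the share of all tested genes counted, so they do not set the 6 apart from other genes. The cultures of the groups did not overlap for Kitl, Pdgfa, Pdgfd and the untested Kit, and they did not overlap for 1923 tested genes (16.6%). The study drew its own differing genes, growth factors among them, from these same samples, so the calls of Pdgfa, Pdgfd and Kitl are not independent evidence of a direction.

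**Figure D1:**
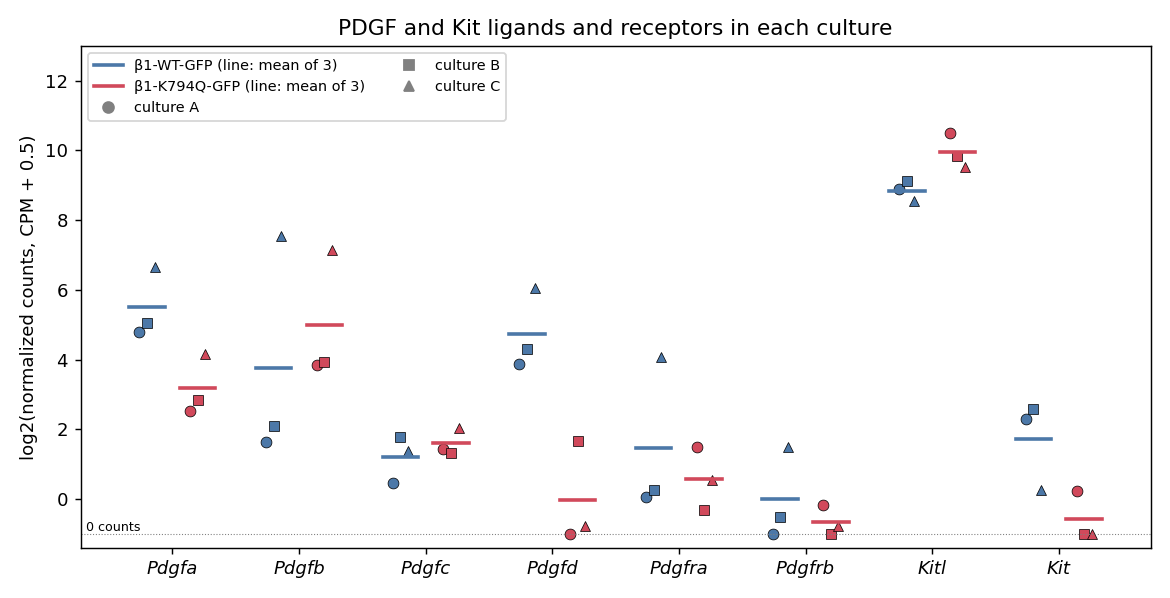
Level of each gene in the 6 cultures, as log2 of normalized counts (CPM plus 0.5), with circles, squares and triangles for cultures A, B and C and a line at the mean of the 3 log2 values; the dotted line marks 0 counts. Kitl lay highest, from 373 to 1461 CPM, while Pdgfb, Pdgfra and Pdgfrb were highest in β1-WT-GFP culture C.

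The promoters of the 3 genes that passed are shown as the sequences around the annotated starts of the differing transcripts. Each window runs from 250 bases before to 50 bases after a transcription start in RefSeq (GRCm38.p6), which held windows for 6 of the 8 genes. Capitals mark matches on either strand to the GC box GGGCGG, bound by Sp1-type factors, and to the TATA box TATAAA. The Pdgfa window is the upstream of 2 and lies at chr5:138994895-138995194 on the minus strand, that of Pdgfd at chr9:6168236-6168535 on the plus strand and that of Kitl at chr10:100015571-100015870 on the plus strand.
Pdgfa: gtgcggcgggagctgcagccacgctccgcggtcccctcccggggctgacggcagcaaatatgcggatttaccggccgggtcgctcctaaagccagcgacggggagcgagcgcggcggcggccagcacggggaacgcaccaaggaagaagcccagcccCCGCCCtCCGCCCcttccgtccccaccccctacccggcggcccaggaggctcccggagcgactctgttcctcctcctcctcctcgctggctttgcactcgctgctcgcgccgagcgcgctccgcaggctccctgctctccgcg
Pdgfd: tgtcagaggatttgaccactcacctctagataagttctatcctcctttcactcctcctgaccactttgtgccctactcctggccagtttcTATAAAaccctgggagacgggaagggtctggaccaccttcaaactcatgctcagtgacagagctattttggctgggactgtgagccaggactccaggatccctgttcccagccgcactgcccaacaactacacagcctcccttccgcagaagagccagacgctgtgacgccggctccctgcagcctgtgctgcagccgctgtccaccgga
Kitl: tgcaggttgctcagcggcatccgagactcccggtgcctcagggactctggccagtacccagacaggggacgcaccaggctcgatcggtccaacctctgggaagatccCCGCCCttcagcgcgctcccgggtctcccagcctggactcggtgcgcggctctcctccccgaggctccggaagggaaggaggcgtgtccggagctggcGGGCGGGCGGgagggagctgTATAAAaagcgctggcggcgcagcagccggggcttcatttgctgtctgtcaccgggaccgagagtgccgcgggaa
The printed Pdgfa window held 37 CpG dinucleotides, more than 94.4% of 32851 promoters, and the Kitl window held 28, more than 85.8% of them. The downstream Pdgfa window, at chr5:138994232-138994531 and not shown, held 24 CpG, more than 80.0% of promoters, and 1 GC box, and counts per gene do not show from which start the transcripts came. The Pdgfd window held 8 CpG, close to the median of 7. GC boxes numbered 2 in the printed Pdgfa window and 3 in that of Kitl, of which 1 pair shares bases, and 0 in that of Pdgfd. Of all promoters 35.7% held at least 1. The TATA box was found in the Kitl and Pdgfd windows and in 13.6% of promoters. The AP-1 site TGANTCA (7.81% of promoters), the E-box CACGTG (7.15%), the Egr site GCGNGGGCG (5.55%) and the CArG box (1.63%) had 0 matches in these 3 windows. A match is a description of the letters, not a measured binding site.

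Pdgfa encodes the A chain, a ligand of PDGFRα, and lies at chr5:138976014-138997370 on the minus strand (GRCm38). Its normalized counts were 27.1, 32.3 and 101 CPM in β1-WT-GFP cells and 5.30, 6.71 and 17.5 CPM in β1-K794Q-GFP cells. Every β1-K794Q-GFP culture was below every β1-WT-GFP culture, and culture C was the highest of each group. The means were 53.3 ± 41.0 and 9.82 ± 6.65 CPM (SD, n = 3), a log2 fold change of -2.44 (SE 0.70). In edgeR's quasi-likelihood test its unadjusted p was 0.0121 and its Benjamini-Hochberg adjusted p 0.287, and the two-sided exact permutation test gave p = 0.1, the smallest that 3 cultures against 3 allow. In these bulk samples, fewer expressing cells and less RNA per cell cannot be told apart. The call was kept without any one culture, and the log2 fold change was -1.58 without β1-WT-GFP culture C and -3.15 without β1-K794Q-GFP culture C.

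Pdgfd encodes the D chain, a latent ligand of PDGFRβ, and lies at chr9:6168584-6378850 on the plus strand. Its raw counts were 163, 193 and 936 in β1-WT-GFP cells, and 0, 27 and 1 in β1-K794Q-GFP cells. As normalized counts these were 14.3, 19.3 and 65.2 CPM against 0, 2.66 and 0.0860 CPM. Transcripts were thus clear in every β1-WT-GFP culture, whereas β1-K794Q-GFP cultures A and C were under the limit of 3 counts and culture B alone rose above it. The means were 32.9 ± 28.1 and 0.917 ± 1.51 CPM (SD, n = 3), and the log2 fold change was -5.18 (SE 1.45, unadjusted p = 0.0108, adjusted p = 0.273, edgeR's quasi-likelihood test). Without β1-K794Q-GFP culture B, which leaves 1 count in that group, the fitted log2 fold change was -9.21 and depends on the fit's prior. Without both C cultures it was -3.65 and no longer passed (unadjusted p = 0.0536, edgeR's quasi-likelihood test).

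Pdgfb, the B chain through which endothelial cells recruit pericytes, lies at chr15:79995874-80014977 on the minus strand. Its normalized counts were 2.62, 3.80 and 187 CPM in β1-WT-GFP cells, and 13.9, 14.8 and 141 CPM in β1-K794Q-GFP cells. Culture C was far above A and B in both groups, so that the groups overlapped although β1-WT-GFP cultures A and B were the lowest of all. The log2 fold change over all cultures was -0.19 (SE 1.71, adjusted p = 0.982, edgeR's quasi-likelihood test), and this SE leaves room for a large difference in either direction. Culture C exceeded A and B by 5.68 on the log2 scale in β1-WT-GFP and by 3.26 in β1-K794Q-GFP cells. A spread over the β1-WT-GFP cultures as large as that of Pdgfb was found in 0.181% of tested genes. The direction was not stable: it turned without β1-K794Q-GFP culture A (0.26) or B (0.25), neither of which passed, and without β1-WT-GFP culture C, where the log2 fold change was 4.16 (SE 1.38, unadjusted p = 0.0280, adjusted p = 0.244, edgeR's quasi-likelihood test). Without both C cultures, a setting chosen after these values were seen, it was 2.16 (SE 0.32, unadjusted p = 0.00176, adjusted p = 0.103).

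Pdgfc encodes the C chain, a latent ligand of PDGFRα, and lies at chr3:81036416-81214040 on the plus strand. It was measured at 0.875, 2.90 and 2.09 CPM in β1-WT-GFP cells and at 2.21, 1.97 and 3.61 CPM in β1-K794Q-GFP cells. These values, from 10 to 42 counts, overlapped between the groups. Its log2 fold change of 0.41 (SE 0.54, adjusted p = 0.888, edgeR's quasi-likelihood test) was smaller than its SE.

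Per length of transcript, the makeup of the PDGF ligand transcripts differed between cultures. In cultures A and B of β1-WT-GFP, Pdgfa was the most abundant of the 4, at 62.0% and 57.7% of their sum, and Pdgfb took 4.50% and 5.09%. Pdgfb was the most abundant in every β1-K794Q-GFP culture, at 61.0%, 51.2% and 84.3% in A, B and C, and also in β1-WT-GFP culture C at 45.7%. Pdgfd took 32.3%, 34.1% and 21.0% in β1-WT-GFP cells, against 0%, 12.2% and 0.0676% in those of β1-K794Q-GFP. The ratio of Pdgfa to Pdgfb per length was 13.8, 11.3 and 0.718 in β1-WT-GFP cells and 0.510, 0.605 and 0.165 in β1-K794Q-GFP cells. The ratios did not overlap between the groups, although β1-WT-GFP culture C was closer to the β1-K794Q-GFP cultures than to A and B of its own group. The summed level of the 4 was highest in culture C of both groups, at 98.3 CPM per kb in β1-WT-GFP and 40.3 CPM per kb in β1-K794Q-GFP, and between 5.46 and 18.0 CPM per kb in the other cultures. These shares describe transcripts, not protein.

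**Figure D2:**
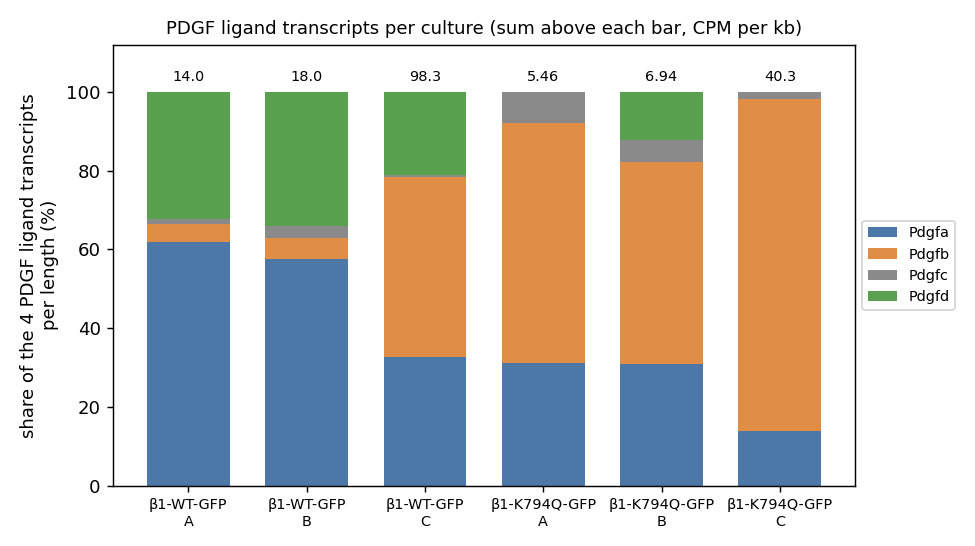
Share (%) of each PDGF ligand gene in the summed PDGF ligand transcripts per length of each culture, with the sum (CPM per kb) above each bar. Pdgfd makes up 21.0% to 34.1% in β1-WT-GFP and at most 12.2% in β1-K794Q-GFP cultures.

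Kitl, which encodes stem cell factor, lies at chr10:100015630-100100416 on the plus strand. Its normalized counts were 474, 556 and 373 CPM in β1-WT-GFP cells and 1461, 919 and 736 CPM in β1-K794Q-GFP cells. All β1-K794Q-GFP cultures were above all β1-WT-GFP cultures, and β1-K794Q-GFP culture A stood highest. The means were 468 ± 91.9 and 1039 ± 377 CPM (SD, n = 3), a log2 fold change of 1.15 (SE 0.33). In edgeR's quasi-likelihood test its unadjusted p was 0.0127 and its Benjamini-Hochberg adjusted p 0.289, and the exact permutation test gave its smallest p, 0.1. Its range over the β1-WT-GFP cultures was 0.58 on the log2 scale, equal to the median range of tested genes, and its range over the β1-K794Q-GFP cultures was 0.99, against a median of 0.60. Without β1-K794Q-GFP culture A its log2 fold change was 0.82, under the fold threshold (unadjusted p = 0.0366).

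The genes around Kitl were also higher in β1-K794Q-GFP cells. Of the 25 tested genes nearest to it, from -5.98 to 5.83 Mb away on chromosome 10, 24 had a log2 fold change above 0 and the median was 0.76, against -0.02 over all tested genes. Tmcc3, Cradd, Socs2, Cep290, Tmtc2 and Gm15663, 6 of the 25, passed both thresholds and were higher, and 0 were lower. Socs2, a feedback inhibitor of cytokine receptor signaling, had a log2 fold change of 1.78, and Cep290, a protein of the primary cilium, had 1.11. The median level of these neighbours, taken on the log2 scale against the β1-WT-GFP mean, was 0.82, 0.68 and 0.73 in β1-K794Q-GFP cells but -0.02, 0.03 and -0.04 in those with β1-WT-GFP. When this regional level was taken out of each gene and culture, the log2 fold change of Kitl was 0.39 (SE 0.32, unadjusted p = 0.267, adjusted p = 0.836, edgeR's quasi-likelihood test) and its call was lost. Pdgfa (-2.38) and Pdgfd (-4.84) still passed both thresholds in that fit. Around the other genes described here the median level of the 25 neighbours stayed between -0.36 and 0.23 in each culture.

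**Figure D3:**
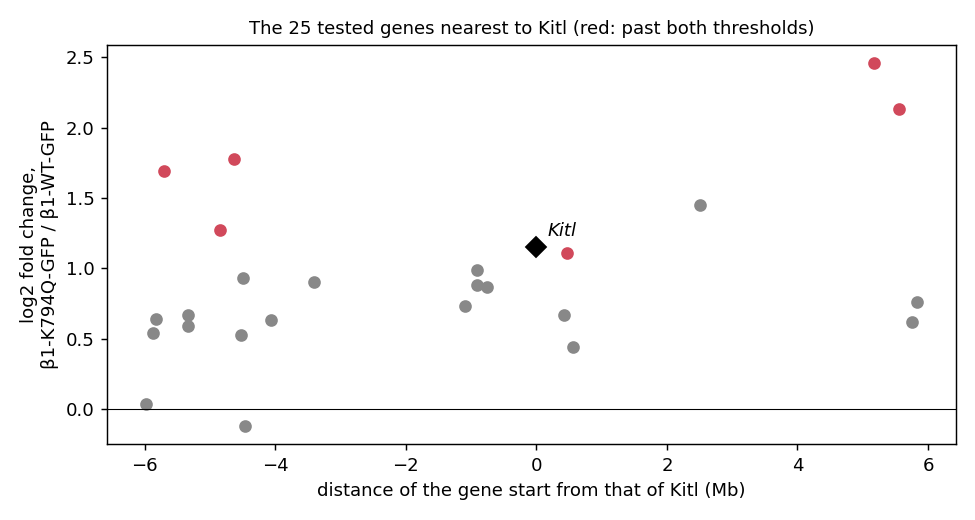
Log2 fold change (β1-K794Q-GFP against β1-WT-GFP) of the 25 tested genes nearest to Kitl, with Kitl as a diamond and genes past both thresholds in red. Distance (Mb) runs between the lower coordinates of the genes, which the axis calls starts, on either strand. All but 1 of the 25 lie above 0, with a median of 0.76.

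Receptor transcripts were scarce. Pdgfra, which encodes PDGFRα, lies at chr5:75152292-75198215 on the plus strand, with its start 423 kb from that of Kit. Its raw counts were 6, 7 and 236 in β1-WT-GFP cells and 24, 3 and 11 in β1-K794Q-GFP cells, or 0.525, 0.700 and 16.4 CPM against 2.31, 0.296 and 0.946 CPM. β1-WT-GFP culture C was the highest, and the remaining cultures of the groups overlapped. The log2 fold change was -2.31 (SE 1.46, adjusted p = 0.700, edgeR's quasi-likelihood test) and 0.96 (SE 0.94) without β1-WT-GFP culture C. The summed level of 11 fibroblast markers, Pdgfra among them, was 25.6 CPM in that culture and 2.90 to 4.81 CPM in the others, or 9.12 against at most 3.75 CPM without Pdgfra. Dcn, Lum, Thy1 and Postn were at 0 in every culture, and the part of other cell types in the Pdgfra level was not tested.

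Pdgfrb, which encodes the pericyte receptor PDGFRβ, had 0, 2 and 33 counts in β1-WT-GFP cells and 4, 0 and 1 in β1-K794Q-GFP cells. It was at or under 3 counts in 4 of the 6 cultures, and β1-WT-GFP culture C, at 2.30 CPM, was the highest. The groups overlapped (two-sided exact permutation test, p = 0.7).

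Kit, the receptor of stem cell factor, lies at chr5:75574916-75656722 on the plus strand. It had 50, 55 and 10 counts in β1-WT-GFP cells and 7, 0 and 0 in β1-K794Q-GFP cells, or 4.37, 5.50 and 0.696 CPM against 0.674, 0 and 0 CPM. The groups did not overlap, but β1-WT-GFP culture C was barely above β1-K794Q-GFP culture A. The exact permutation test of these 3 against 3 cultures gave the smallest p it allows, 0.1, and the means were 3.52 ± 2.51 and 0.225 ± 0.389 CPM (SD). With no filter on low counts, edgeR's quasi-likelihood test gave a log2 fold change of -3.92 (SE 1.44, unadjusted p = 0.0292, adjusted p = 0.465). When a culture was left out with the filter in place, Kit passed the thresholds without β1-K794Q-GFP culture A (-8.33, fitted against 0 counts and so no measure of size) and without β1-WT-GFP culture C (-4.40). It did not pass without β1-K794Q-GFP culture B (-3.36, unadjusted p = 0.0676, edgeR's quasi-likelihood test) or culture C (-3.33, unadjusted p = 0.0751), and stayed under the filter without β1-WT-GFP culture A or B. Of 12 markers of mast and other blood cells, Ms4a2, Fcer1a, Tpsb2, Gata1 and Lyz2 were at 0 in every culture, and the summed level of the 11 measured was 56.0 to 151 CPM in β1-K794Q-GFP and 78.9 to 119 CPM in β1-WT-GFP cultures. Cd68 (31.0 to 103 CPM) and Gata2 (19.1 to 47.1 CPM) made up most of it, and neither passed the thresholds. Csf1r was at 10.7 CPM in β1-WT-GFP culture C and at most 0.774 CPM in the others. Ptprc was seen only in that culture, at 0.279 CPM.

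Levels of different genes were compared per length of exons. The median over the 6 cultures was 109 CPM per kb for Kitl, above 99.1% of genes, followed by Pdgfa at 7.15, Pdgfb at 3.44, Pdgfd at 2.68 and Pdgfc at 0.423 CPM per kb. The receptors were lowest, at 0.0821 (Pdgfra), 0.0769 (Kit) and 0.0261 (Pdgfrb) CPM per kb. Kitl, with 63.1 to 247 CPM per kb, overlapped with none of the others. Every other pair of neighbours in this order overlapped over the 6 cultures, a range that includes the difference between the groups. Within β1-WT-GFP cells, Pdgfd (4.52 to 20.7 CPM per kb) lay above Pdgfc (0.172 to 0.57 CPM per kb). Within β1-K794Q-GFP cells, Pdgfb (3.33 to 34.0 CPM per kb) lay above Pdgfd (0 to 0.845 CPM per kb). Pdgfc (0.388 to 0.71 CPM per kb) likewise lay above Pdgfra (0.0295 to 0.231 CPM per kb) there. In all other cases, neighbours below Kitl overlapped within a group as well. Kitl per length was 45.2, 22.4 and 3.09 times the summed PDGF ligands in β1-K794Q-GFP cells and 5.72, 5.24 and 0.642 times in β1-WT-GFP cells, lowest in culture C of both groups, and the groups overlapped.

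**Figure D4:**
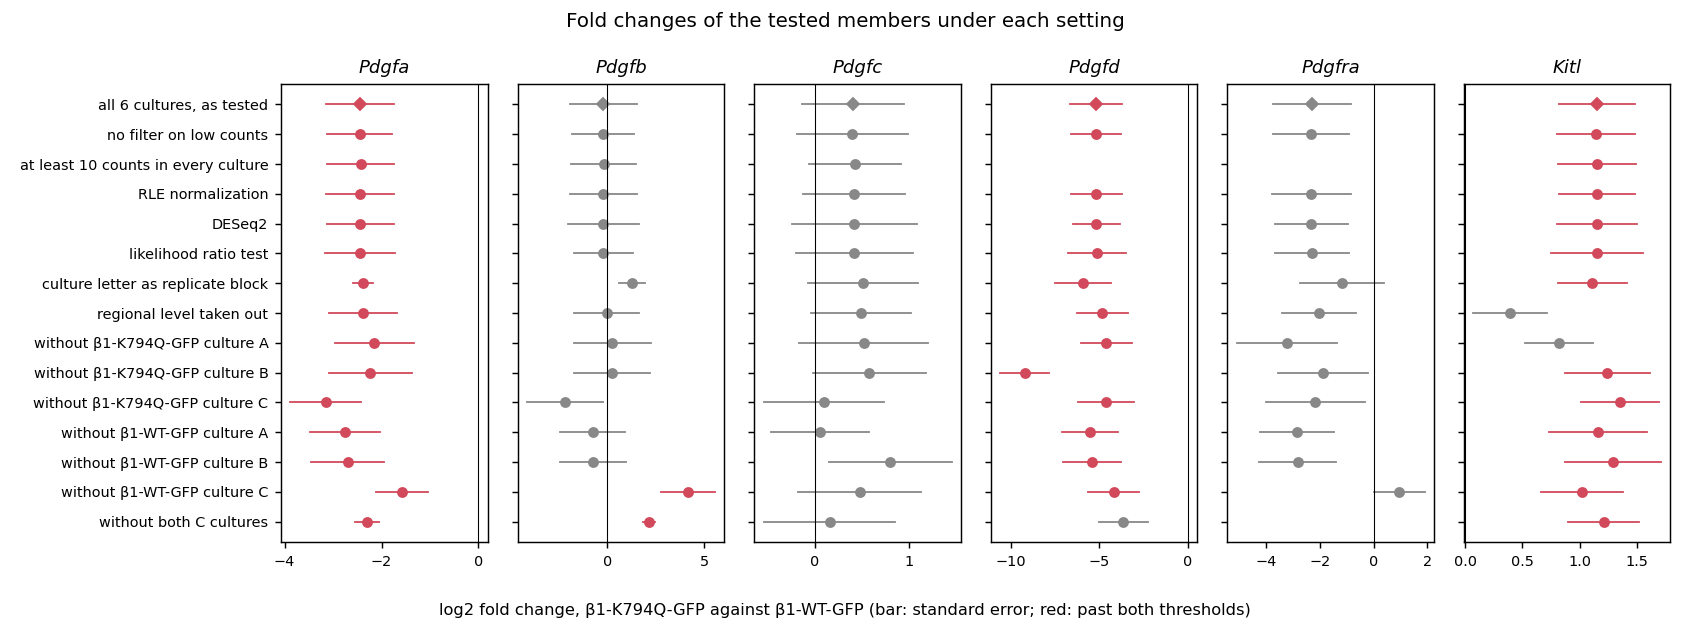
Log2 fold change (β1-K794Q-GFP against β1-WT-GFP, bars SE) of the 6 tested genes under each way of processing, in red where both thresholds were passed; diamonds use all 6 cultures. Pdgfa stays between -3.15 and -1.58, while Pdgfb runs from -2.17 to 4.16 and takes both signs.

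The other genes of the pathway were examined as 5 lists of 93 genes written from general knowledge. Among all tested genes 5.19% passed both thresholds, 3.48% as higher and 1.71% as lower, and the list counts stand beside these shares. In the list of ligand processing and binding, 9 of 13 genes were tested, 1 passed as higher and 0 as lower, with a median log2 fold change of 0.43 against -0.02 over all tested genes. The gene that passed was Plat, tissue plasminogen activator, which activates latent PDGF-C. It was at 2.01, 2.60 and 2.16 CPM in β1-WT-GFP cells and at 3.47, 25.4 and 4.21 CPM in β1-K794Q-GFP cells (log2 fold change 2.28, SE 0.84). β1-K794Q-GFP culture B was far above the others, and leaving out each culture in turn kept the call 2 of 6 times, with 0.77 as the lowest log2 fold change.

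Of the adaptors and effectors that bind the activated receptors, 32 of 36 were tested. As higher 0 passed and as lower 1 (3.48% and 1.71% of all tested genes), with a median of 0.03. That gene was Grb10, an adaptor that dampens insulin and growth factor receptor signaling. Its levels were 1008, 1093 and 2343 CPM in β1-WT-GFP cells and 427, 191 and 592 CPM in β1-K794Q-GFP cells. The groups did not overlap, as was so for 16.6% of all tested genes. Its log2 fold change was -1.88 (SE 0.54, adjusted p = 0.287, edgeR's quasi-likelihood test), and the call was kept without any one culture. Those that did not pass include the Src family kinases, phosphoinositide 3-kinase subunits and STAT factors that were tested.

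Among ubiquitin ligases, phosphatases and docking proteins that limit receptor signaling, 16 of 21 were tested. In each direction 1 passed (3.48% of all tested genes as higher, 1.71% as lower), and the median was 0.14. Lrig1, a transmembrane protein that lowers growth factor receptor levels, was at 104, 109 and 79.7 CPM in β1-WT-GFP cells and at 46.2, 44.8 and 49.3 CPM in β1-K794Q-GFP cells. Its cultures were close together within each group, and its log2 fold change was -1.06 (SE 0.18, adjusted p = 0.0955, edgeR's quasi-likelihood test), or -0.97, under the fold threshold, without β1-WT-GFP culture B. Ptprj, a receptor phosphatase that acts on PDGFRβ, was at 32.1, 47.8 and 25.6 CPM in β1-WT-GFP cells and at 103, 56.7 and 55.5 CPM in β1-K794Q-GFP cells, without overlap. It was higher by 1.03 on the log2 scale (SE 0.35), and its call was kept 3 of 6 times when a culture was left out. Of the other receptors of the same class and their ligands, Csf1 and Flt3l were tested and 0 passed, with log2 fold changes of -0.91 (SE 0.62) and -0.30 (SE 0.63). The receptor gene Csf1r was under the filter and highest in β1-WT-GFP culture C, at 10.7 CPM.

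**Figure D5:**
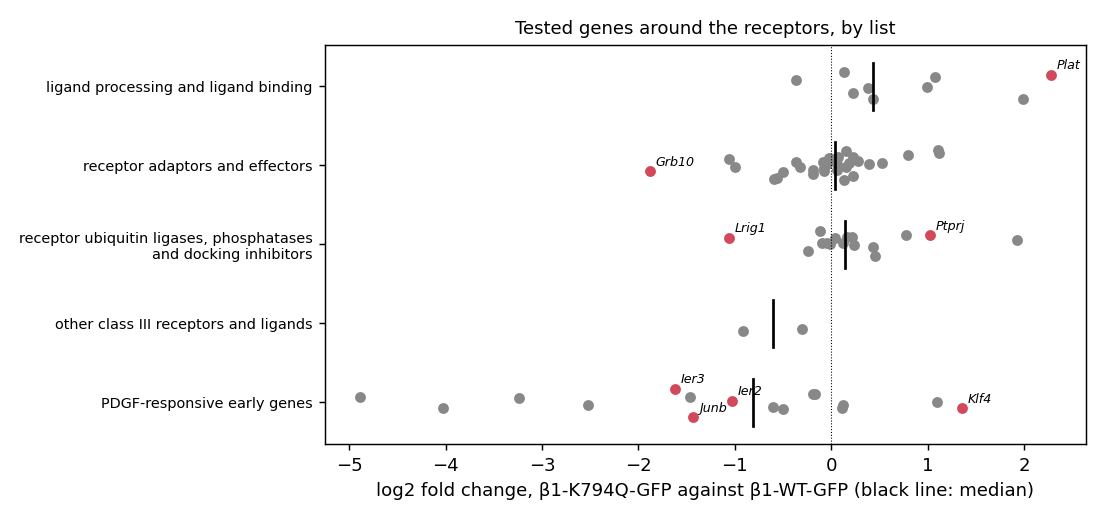
Log2 fold change (β1-K794Q-GFP against β1-WT-GFP) of the tested genes in 5 pathway lists, with the median of each list as a black line and genes past both thresholds named in red. Medians run from -0.82 (early genes) to 0.43 (ligand processing and binding), and 8 genes passed.

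Of 18 early genes that PDGF and other growth factors induce, 16 were tested. As higher 1 passed and as lower 3 (3.48% and 1.71% of all tested genes), with a median log2 fold change of -0.82. Klf4, a transcription factor of quiescent endothelium, was higher at 1.36 (SE 0.29), and the immediate-early genes Ier3 (-1.62, SE 0.39), Junb (-1.43, SE 0.40) and Ier2 (-1.03, SE 0.41) were lower. The median direction rested on β1-WT-GFP culture C, in which the summed level of the list was 3199 CPM, against 714 to 1236 CPM in the others. Egr1 was at 2.89, 2.50 and 318 CPM in β1-WT-GFP cells and at 2.12, 7.11 and 1.72 CPM in β1-K794Q-GFP cells. Cyr61 reached 610 and Ctgf 309 CPM in the same culture, with at most 22.9 and 17.2 CPM elsewhere, so that a single culture stood apart in genes named here after their values were seen. Without it the median was 0.74, with Ctgf, Cyr61, Fosl1, Klf4 and Nr4a1 passing as higher and Ier3 as lower. Without both C cultures it was 0.99, with 8 higher and 1 lower. Over all genes, the 603 calls became 992 without β1-WT-GFP culture C and 1046 without both C cultures. The shares given above are those of the fit to all 6 cultures and do not apply to these fits. With each culture left out in turn, Klf4 and Ier3 passed 6 of 6 times, Junb 5 and Ier2 1. The culture with the high early genes was also the one with the highest Pdgfa, Pdgfb, Pdgfd, Pdgfra and Pdgfrb, and the part of one in the other was not tested.

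Genes with the pattern most like each tested gene were found by the root mean square difference of log2 levels over the 6 cultures, each centred on its mean, where 0 is the same pattern. For Kitl these were Kiss1r (0.15), Ptprj (0.15) and Acss2 (0.17), against a median of 0.74 over tested genes. Those of Pdgfa were Tspan2 (0.45), Fblim1 (0.49) and Bmper (0.49), against 1.44. Pdgfd was most like Ahrr (0.47), Clip3 (0.50) and Cyyr1 (0.69), against 2.64. Ahrr, at 29.8, 43.9 and 98.8 CPM in β1-WT-GFP cells, had 0, 3.06 and 0.0860 CPM in β1-K794Q-GFP cells, and the one with transcripts among the latter was again culture B. The nearest to Pdgfb were Slc35f1 (0.71), Mcc (0.83) and Cxcl12 (0.83), against 2.30, and Cxcl12 was likewise highest in culture C of both groups, at 767 and 176 CPM. Pdgfra was most like Nptx1 (0.29), Steap2 (0.37) and Sulf1 (0.42), and Pdgfc most like Fam221a (0.18), Rhod (0.23) and Dyrk2 (0.27), against medians of 1.53 and 0.61. Some of these genes had few counts, such as Kiss1r (0.139 to 2.21 CPM), Tspan2 (0 to 7.17 CPM) and Sulf1 (0 to 10.8 CPM). At such levels the 0.5 CPM added before the logarithm sets part of the pattern.

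Genes within 1 Mb were also counted, and the share that passed both thresholds among all tested genes was 5.19%. Near Kitl, 1 of 6 tested genes (Cep290) passed. Near Pdgfa, 1 of 29 passed as higher and 2 as lower: Fam20c (1.48, SE 0.52), Gpc2 (-2.09, SE 0.50) and Gpr30 (-6.66, SE 1.08). Fam20c encodes a kinase of secreted proteins, Gpc2 a glypican and Gpr30 a G protein-coupled estrogen receptor. Glrb, a glycine receptor subunit, was lower (-4.33, SE 0.92) among 3 tested genes near Pdgfc, which did not itself pass. Casp4, an inflammatory caspase, was lower (-1.55, SE 0.61) among 4 near Pdgfd. Among the tested genes near Pdgfb (34), Pdgfra (5), Pdgfrb (19) and Kit (7), 0 passed. Leaving out each culture in turn kept the calls of Gpc2, Gpr30 and Glrb in 6 of 6 fits, that of Cep290 near Kitl in 5, that of Casp4 in 2 and that of Fam20c in 1.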

How the data were processed

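The authors sequenced total RNA of the 6 cultures after ribosomal RNA depletion, and deposited the read counts of each mouse gene symbol without normalization. The submitters' processing notes name bcl2fastq 2.20.0, STAR 2.7.4a, HTSeq 0.9.1, edgeR 3.38.4 and mm10. Whether counting used strand is not given in the sources used here, so overlapping and antisense genes cannot be told apart. The study describes 2 sequencing runs, and the labels do not say which one was deposited. The table held 0 further columns of per-sample values. Human and mouse Integrin-β1 reads cannot be separated in these counts, so the chimera was not checked.

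The deposited counts were fitted with edgeR 4.0.16 under R 4.3.3 (filterByExpr, TMM, two-sided quasi-likelihood F-test, all 6 cultures, no covariate, common dispersion 0.186). Calls needed a fold change of 2 or more together with an unadjusted p no higher than 0.05, and Benjamini-Hochberg adjustment ran over all 11608 tested genes. CPM are TMM-normalized counts, 0.5 was added on the log2 scale, and each SE is the log2 fold change over the square root of F. Gene symbols were matched to GENCODE M21 (GRCm38) for positions and exon lengths (21737 direct, 1256 through a synonym, 427 unmatched). Distances between genes run between their lower coordinates, whatever the strand. Python 3.11.15 with scipy 1.17.1 served for two-sided exact permutation tests.

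The members and lists were chosen with earlier results of these data known. Named were the members, list genes and neighbours within 1 Mb past both thresholds, markers at 0, and the 3 genes most like each member. Kitl neighbours beyond 1 Mb, and further markers and list genes, were named after their values were seen. The fit was tested on simulated counts. Alternatives were no filter, at least 10 counts in every culture, RLE normalization, DESeq2 1.42.0, the likelihood ratio test, the culture letter as block, the regional level (the median over the 25 nearest tested genes) taken out and leaving out each culture. Leaving out both C cultures was added after the data were seen.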

Additional observations from a re-analysis of the deposited data

How the results depend on the processing

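Pdgfa and Pdgfc kept their direction and their side of the thresholds in all 14 alternatives each. Kitl kept its call except with the regional level taken out (0.39) and without β1-K794Q-GFP culture A (0.82), and Pdgfd kept its call in all but the fit without both C cultures (-3.65). Pdgfb changed sign with the culture letter as block (1.28), without β1-K794Q-GFP culture A (0.26) or B (0.25), without β1-WT-GFP culture C (4.16) and without both C cultures (2.16), and Pdgfra without β1-WT-GFP culture C (0.96). Leaving out each culture in turn gave log2 fold changes of 0.82 to 1.35 for Kitl, -3.15 to -1.58 for Pdgfa, -2.17 to 4.16 for Pdgfb, 0.06 to 0.80 for Pdgfc, -9.21 to -4.19 for Pdgfd and -3.23 to 0.96 for Pdgfra. The number of these genes past both thresholds was 3 to 5 over those fits, with 5 without β1-WT-GFP culture C, where Pdgfb and Kit passed as well. Without β1-K794Q-GFP culture A it stayed at 3 with Kit in place of Kitl. At an adjusted p of at most 0.05, DESeq2 called 3 and the likelihood ratio test 1 (Pdgfa), with the share of all tested genes not counted for either. Over all genes, 603 calls became 916 with no filter, 501 to 992 when a culture was left out (942 without β1-K794Q-GFP culture B, 992 without β1-WT-GFP culture C) and 1046 without both C cultures. The 8 pathway list calls became 6 to 13 when a culture was left out and 19 without both C cultures. Adjusted p ranged over the alternatives from 0.0268 to 0.836 for Kitl, 0.0134 to 0.662 for Pdgfa and 0.00441 to 0.659 for Pdgfd. The requirement of 10 counts in every culture left out Pdgfd and Pdgfra, and DESeq2 gave no p for Pdgfb and Pdgfra. Deviations of same-lettered cultures correlated weakly, at 0.109, 0.055 and 0.102 over genes (A, B and C). Cultures B and C of β1-K794Q-GFP correlated best with the β1-WT-GFP culture of the same letter. Its culture A correlated best with β1-WT-GFP culture B (0.113). The labels state no pairing by letter, and correlations this small cannot decide whether there was one. With the letter as replicate block 571 genes and 3 of the 8 genes passed, at -2.38 for Pdgfa, -5.95 for Pdgfd and 1.11 for Kitl. Depth limits Pdgfrb, Kit and Pdgfd in β1-K794Q-GFP cells, where most cultures held under 10 counts. The causes of these changes were not tested.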
